A study of Mus musculus with 6 samples.

Results

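The unfolded protein response was described here through 10 genes, Ern1, Atf6, Atf6b, Eif2ak3, Ddit3, Ppp1r15a, Creb3l2, Dnajb9, Herpud1 and Manf. They were taken by gene symbol from the 24346 symbols listed for each library, and all 10 were found. RNA was sequenced from 6 libraries of mouse splenic plasma cells, 3 sorted as IgM and 3 sorted as IgG1 plasma cells. In both groups the cells descended from congenically marked B1-8germ B cells, which carry a rearranged heavy chain against the hapten NP, given to C57BL/6J wild-type hosts. Those hosts received NP-CGG in alum, and donor-derived cells of each isotype were collected from the spleen at day 7. The groups therefore share donor genotype, host strain, antigen, tissue and day, and differ in the sorted isotype. Donor cells with this receptor respond to NP, so the plasma cells of a normal repertoire are not represented. Neither the age nor the number of mice behind each library is stated in the sources used here, nor whether replicate libraries derive from different animals or from a pool. The p-values therefore measure only library-to-library spread, which may be technical.

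Secretory cells fold large amounts of protein in the endoplasmic reticulum (ER), and 3 membrane proteins there report when folding falls behind. IRE1, the product of Ern1, splices the mRNA of the transcription factor XBP1. ATF6 is cut in the Golgi and its freed part enters the nucleus, and PERK, the product of Eif2ak3, phosphorylates eIF2α, which lowers translation and raises ATF4 and CHOP. Plasma cells depend on IRE1 and XBP1 for antibody secretion, while the PERK branch is known to be held low in them.

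The sorted cells carried plasma cell transcripts in every library. The 7 plasma cell markers (Sdc1, Xbp1, Prdm1, Irf4, Jchain, Mzb1 and Tnfrsf17) summed to 44125 to 50008 FPKM (fragments scaled by transcript length and by library size) in IgM and 36681 to 39225 in IgG1. Most of each sum was Jchain and Mzb1. On average Tnfrsf17 was at 623 FPKM in IgM and 81.9 in IgG1. Jchain (26835 and 15751), Prdm1 (44.3 and 21.3) and Irf4 (92.3 and 55.3) were also lower in IgG1. Sdc1 (494 and 532), Xbp1 (5580 and 6636) and Mzb1 (13319 and 15063) were higher on average in IgG1. None of them passed the threshold of the comparison below, and the groups overlapped for Sdc1 and Mzb1. The 6 T cell markers stayed at or below 2.88 FPKM, the 6 myeloid markers at or below 8.44 and the 4 erythroid markers at or below 2.77. Summed T cell markers ran from 2.15 to 4.73 FPKM in IgM and 1.13 to 7.29 in IgG1, and summed myeloid markers from 6.02 to 10.9 and 0.264 to 6.08. Of the B cell markers, Pax5 was listed at 0 in all libraries, Cd22, Fcer2a and Bach2 stayed under 5 FPKM, and Ms4a1 ran from 61.1 to 70.5 in IgM and from 45.9 to 66.4 in IgG1. The part of these differences in the results was not tested. The libraries held an estimated 15100000 to 17500000 fragments, from the median of small deposited values within a preset range. That range bounds the estimate, so the figures are rough. For the member with the fewest, Ddit3, this corresponds to about 72 to 320 fragments per library, and for each other member to at least about 720, so counting error is largest for Ddit3.

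The levels of the 10 genes spanned a wide range, and FPKM, being per length, allows them to be ordered. In IgM cells the order of mean FPKM was Manf (950), Herpud1 (773), Dnajb9 (157), Atf6b (139), Creb3l2 (95.4), Atf6 (59.6), Ppp1r15a (27.4), Eif2ak3 (25.5), Ern1 (21.1) and Ddit3 (12.0). The library ranges of Dnajb9 and Atf6b overlapped, as did those of each neighbouring pair from Ppp1r15a down to Ddit3, so those neighbours could not be ranked beyond the spread of their libraries. In IgG1 cells the order was the same except that Ddit3 (11.4) stood above Ern1 (10.7), with overlapping ranges, and Atf6 overlapped Ppp1r15a. In both isotypes Manf and Herpud1 were thus listed above the sensors by a wide margin. Together the 10 genes made up 0.289 to 0.302% of summed FPKM in IgM libraries and 0.236 to 0.262% in those of IgG1, ranges that do not overlap. Their summed FPKM ran from 2188 to 2384 in IgM and from 2071 to 2242 in IgG1, and the summed FPKM of all symbols from 730695 to 806599 and from 855123 to 914019.

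**Figure D1:**
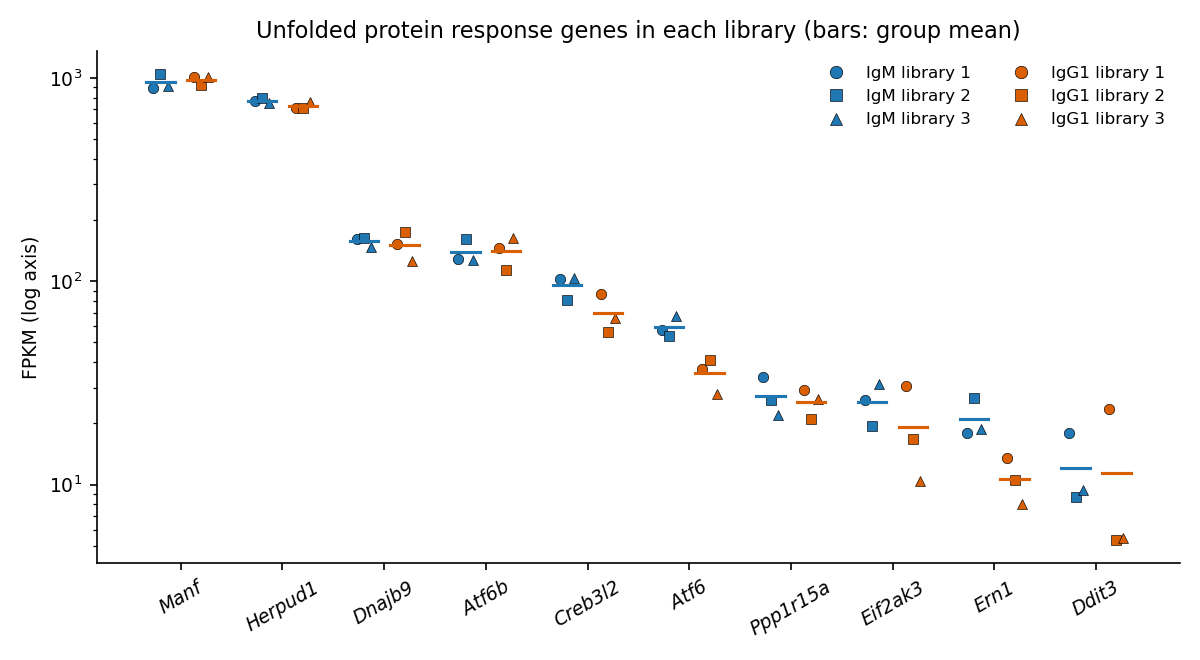
FPKM (log axis) of the 10 genes in each of 6 libraries, ordered by mean, with IgM in blue, IgG1 in orange, 1 symbol shape per library number and a bar at each group mean. The IgG1 points of Atf6 and Ern1 lie below all IgM points, and for the other 8 genes the groups overlap.

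The comparison asks how the response differs between switched and unswitched plasma cells of the same day. All 10 genes passed the filter of at least 1 FPKM in at least 3 of the 6 libraries, and each did so in both groups. Of the 10, 1 was lower in IgG1 cells (Atf6) and 0 were higher at an adjusted p under 0.05 (limma on log2(FPKM + 1), Benjamini-Hochberg over 9087 genes). Over all tested genes 6.02% were called, 1.76% as lower and 4.26% as higher. The groups did not overlap for Atf6 and Ern1, both lower in IgG1, while 27.2% of all tested genes had no overlap, and 13.5% of all tested genes had none and were lower. Unadjusted p was under 0.05 for 3 of the 10, namely Atf6, Ern1 and Creb3l2, beside 22.2% of all tested genes. The median log2 fold change of the 10 was -0.20, beside -0.05 over all tested genes. Negative values were found for 8 of 10, beside 53.7% of all tested genes. With the replicate number as a block 0 of 10 were called (6.45% of all tested genes). After removal of length and GC trends 0 were called as well, beside 2.92% of all tested genes with the median transcript length and 3.13% with the longest. Every log2 fold change below is the IgG1 value less the IgM value on log2(FPKM + 1), a scale that understates the change of low genes, with limma's standard error (SE) and 95% interval. In bulk RNA, fewer cells with a transcript and less of it per cell cannot be told apart.

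Atf6 encodes the transmembrane transcription factor of the ATF6 branch. It was at 57.5, 54.0 and 67.5 FPKM in IgM libraries 1 to 3 and at 36.9, 41.0 and 27.9 in IgG1 libraries 1 to 3. Every IgG1 library lay below every IgM library, and the IgM mean was 1.69 times the IgG1 mean. On the log2 scale the difference was -0.75 (SE 0.19, 95% interval -1.18 to -0.33, adjusted p = 0.0437 with limma). Without any 1 of the 6 libraries the call was lost, with adjusted p from 0.0575 to 0.17 (limma). As the groups did not overlap, leaving out 1 library could not change the direction. The transcript of Atf6 is 7246 nt long, among the longest of the members, and library-wide trends with length differed between the groups. Deviations from the gene means correlated with transcript length at Spearman rho 0.14 to 0.32 in the IgM libraries and at -0.14 to -0.25 in the IgG1 libraries, across genes. With each library's trend with length and GC content removed, the log2 fold change of Atf6 was -0.34 (SE 0.18, adjusted p = 0.341).

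Ern1 encodes IRE1α, the kinase and endonuclease that splices Xbp1 mRNA. It was at 18.0, 26.5 and 18.7 FPKM in the IgM libraries and 13.5, 10.5 and 7.98 in IgG1 libraries 1 to 3, again without overlap. Its log2 fold change was -0.93 (SE 0.29, 95% interval -1.56 to -0.29), larger than that of Atf6 but with adjusted p = 0.0833 (limma), so it did not pass the threshold. The IgM mean was 1.98 times the IgG1 mean. When libraries were scaled to the same total with Jchain left out, the median over all tested genes went to -0.25 and Ern1 was at -1.14 with adjusted p = 0.0411 (limma). This was the 1 alternative of 22 in which Ern1 passed. Quantile normalization and median centring both gave -0.85 (adjusted p = 0.121 and 0.107), and leaving out 1 library gave adjusted p from 0.0592 to 0.269. The annotated Ern1 transcripts have a median length of 1308.5 nt and a longest of 6946 nt, and the length and GC correction depended on which was used. It gave -1.02 (adjusted p = 0.0816) with the median and -0.64 (adjusted p = 0.259) with the longest.

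Eif2ak3 encodes PERK. It was at 25.9, 19.4 and 31.1 FPKM in the IgM libraries and at 30.5, 16.7 and 10.4 in IgG1 libraries 1 to 3. IgG1 library 1 lay within the IgM range and the other two IgG1 libraries below it. The difference on the log2 scale was -0.49 with an interval from -1.24 to 0.26 (adjusted p = 0.452, limma), so neither no difference nor a 2-fold decrease lies outside it. Without IgG1 library 1 the value was -0.87 (adjusted p = 0.11), and without IgG1 library 3 it was -0.14 (adjusted p = 0.83).

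Atf6b, the paralogue of Atf6 with a weaker activation domain, was at similar levels in both groups. Its FPKM were 129, 162 and 128 in the IgM libraries and 146, 114 and 164 in those of IgG1, and the ranges overlapped. It had a log2 fold change of 0.01 (95% interval -0.34 to 0.37, adjusted p = 0.973, limma), and its sign was negative with quantile normalization, with Jchain left out of the scaling and with the length and GC correction. The difference between the paralogues' fold changes was not tested. Creb3l2 encodes a membrane-bound factor of the OASIS family that is released by the same Golgi proteases as ATF6. It was at 102, 80.9 and 103 FPKM in the IgM libraries and at 86.7, 56.4 and 65.6 in those of IgG1. IgG1 library 1 lay above IgM library 2, and the other two IgG1 libraries lay below all IgM libraries. For Creb3l2 the log2 fold change was -0.46 (SE 0.18, 95% interval -0.86 to -0.06, adjusted p = 0.163, limma). Its transcript is 7082 nt long, and correction for length and GC content brought the value to -0.14 (SE 0.16).

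**Figure D2:**
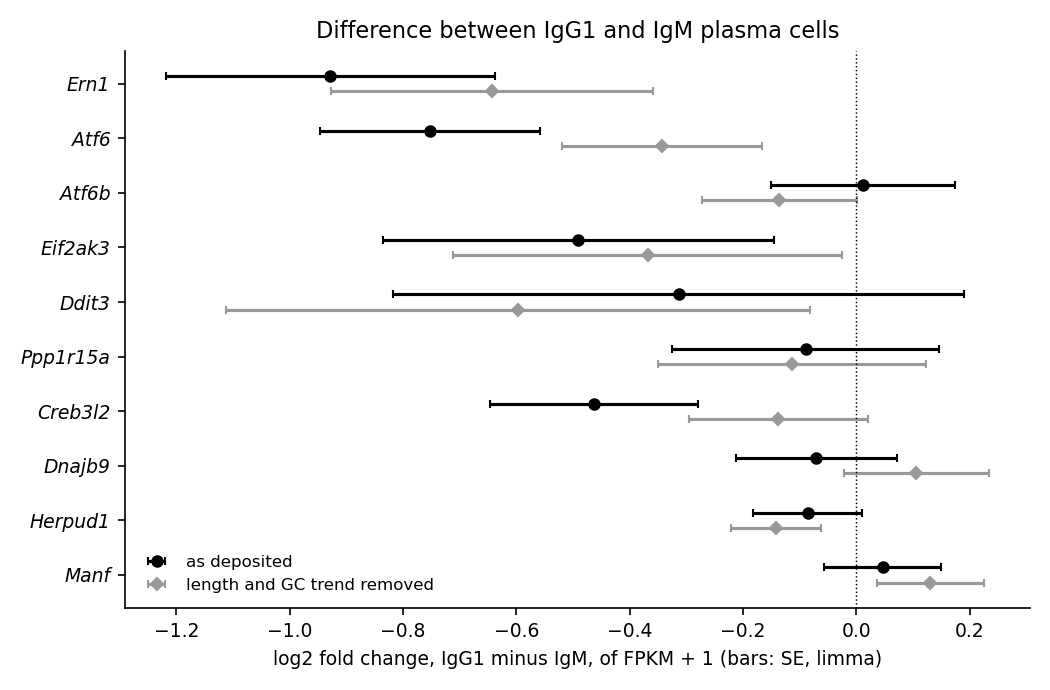
Log2 fold change of each gene, IgG1 minus IgM on FPKM + 1, with limma's SE as bars, as deposited (black) and with each library's trend with transcript length (longest transcript) and GC content removed (grey). The values of Atf6 and Creb3l2, with transcripts of 7246 and 7082 nt, move from -0.75 and -0.46 to -0.34 and -0.14, while those of Herpud1, Dnajb9 and Manf lie within 0.15 of 0 both ways.

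In the PERK branch, CHOP, the product of Ddit3, is the transcription factor linked to cell death under lasting stress, and Ppp1r15a encodes GADD34, which directs the dephosphorylation of eIF2α. Ddit3 was the most variable member. It was at 18.0, 8.67 and 9.43 FPKM in the IgM libraries and at 23.4, 5.34 and 5.45 in IgG1 libraries 1 to 3. Library 1 was the highest of its group in both isotypes, 1.99 times the mean of libraries 2 and 3 in IgM and 4.34 times in IgG1, and the IgG1 libraries 2 and 3 lay below all IgM libraries. The log2 fold change of -0.31 had an interval from -1.41 to 0.79 (adjusted p = 0.77, limma), too wide to exclude a 2-fold change downward. Leaving out both libraries numbered 1, an alternative chosen after their values were seen, gave Ddit3 -0.65 (SE 0.45, adjusted p = 0.515).

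The same 2 libraries were also high in some immediate early genes. Immediate early genes are induced within minutes of stimulation or handling. Fos, a subunit of AP-1, was at 51.0, 1.80 and 7.89 FPKM in the IgM libraries and 21.0, 0.568 and 1.26 in IgG1 libraries 1 to 3. Its partner Jun was at 99.5, 20.7 and 19.9 and at 46.6, 3.87 and 13.5. Library 1 was thus the highest of each group for both genes, as it was for Junb, Ier2 and Zfp36. Of 10 immediate early and heat shock genes tested, 5 had this order, beside 11.1% of all tested genes. Jund, Egr1, Dusp1, Btg2 and Hspa1b did not have it. The heat shock gene Hspa1b, at or below 1.99 FPKM, was lowest in library 1 of both groups. The part of the library 1 order in the Ddit3 values was not tested. Within this list Zfp36, which encodes an mRNA-destabilizing protein, was lower in IgG1 (61.7 ± 5.51 against 106 ± 14.2 FPKM, mean ± SD, n = 3), and Jund (105 ± 18.9 against 48.0 ± 17.1) and Btg2 (266 ± 22.6 against 191 ± 7.54) were higher at adjusted p under 0.05 with limma. None of these 3 was called without IgM library 1. Jund also missed the threshold without IgG1 library 3, Zfp36 without IgG1 library 2, and Btg2 without any library other than IgG1 library 1.

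**Figure D3:**
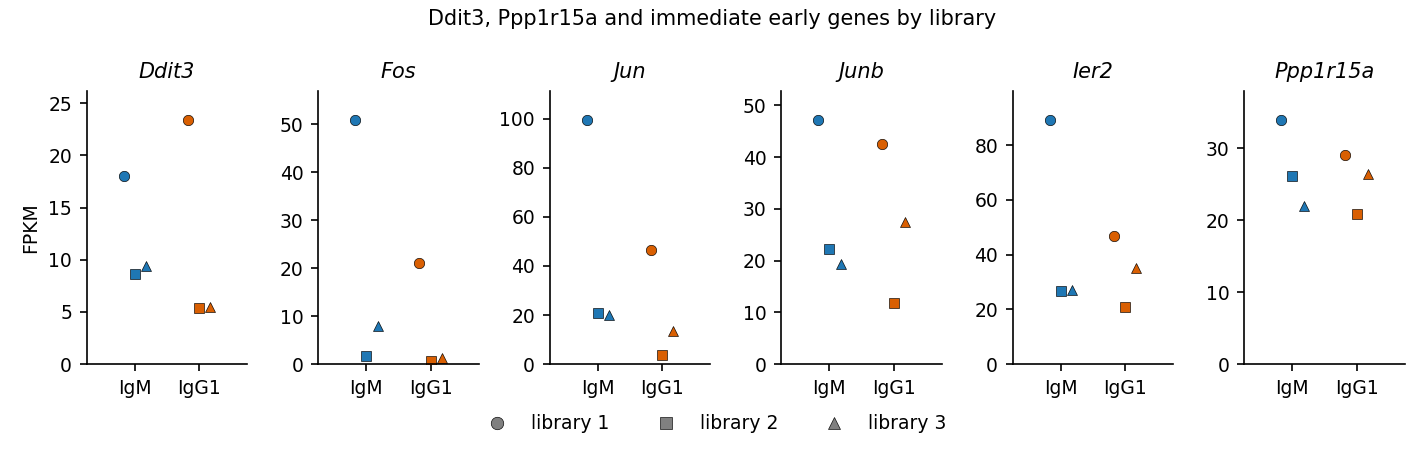
FPKM of Ddit3, Ppp1r15a and 4 immediate early genes in each library, with circles for library 1, squares for library 2 and triangles for library 3 of each isotype (axes start at 0). The circle is the highest point of its group in every panel. The immediate early genes drawn are among the 5 with this order of 10 tested in their list. Ddit3 reaches 18.0 and 23.4 in library 1 and lies at or below 9.43 in the other libraries.

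Ppp1r15a was at 33.9, 26.2 and 21.9 FPKM in the IgM libraries and 29.1, 20.9 and 26.5 in those of IgG1, and the ranges overlapped. Its log2 fold change was -0.09 (95% interval -0.60 to 0.42, adjusted p = 0.866, limma). Its constitutive counterpart Ppp1r15b, which encodes CReP, was at 24.6, 22.9 and 30.3 in the IgM libraries and 17.1, 16.0 and 14.8 in those of IgG1. The groups of Ppp1r15b did not overlap, but the log2 fold change of -0.66 (SE 0.23) had an adjusted p of 0.115. It was named after its values were seen.

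For the targets that act in the ER lumen or membrane the groups overlapped, and none was called with the values as deposited. Dnajb9 encodes ERdj4, a co-chaperone of BiP that restrains IRE1 and is itself induced through XBP1. It was at 160, 163 and 148 FPKM in the IgM libraries and 152, 174 and 126 in those of IgG1. The highest and the lowest value were both in IgG1 cells. For Dnajb9 the log2 fold change was -0.07 (95% interval -0.38 to 0.24, adjusted p = 0.817, limma), with a positive sign after median centring (0.0045) and correction for length and GC content (0.11). Herpud1 encodes HERP, a membrane component of ER-associated degradation. It was at 770, 800 and 748 FPKM in the IgM libraries and at 709, 714 and 761 in those of IgG1. The IgG1 libraries 1 and 2 lay below all IgM libraries and library 3 within their range. This gave a log2 fold change of -0.09 (95% interval -0.30 to 0.12, adjusted p = 0.659, limma). Manf encodes a secreted ER protein that binds BiP. It was at 894, 1044 and 912 FPKM in the IgM libraries and 1015, 918 and 1007 in those of IgG1, with a log2 fold change of 0.05 (95% interval -0.18 to 0.27, adjusted p = 0.834, limma). For the values as deposited, the intervals of these 3 genes leave out a 1.5-fold change in either direction. The values depended on the scaling. Median centring gave Herpud1 -0.011 and Manf 0.12. With quantile normalization Herpud1 was at -0.44 (adjusted p = 0.0117, limma), Manf at -0.32 (adjusted p = 0.0479) and Dnajb9 at -0.25 (adjusted p = 0.343). With Jchain left out of the scaling Herpud1 was at -0.32 (adjusted p = 0.0395, limma), Manf at -0.19 (adjusted p = 0.189) and Dnajb9 at -0.30 (adjusted p = 0.223).

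Promoter sequence is shown for Herpud1 and Ppp1r15a, the members with an exact match to a searched motif, and for Hspa5, the classical target of the response. RefSeq promoters (build GRCm38.p6) were found for 8 of the 10 members, and the 250 bases before the start were searched on both strands for 5 motifs. These were the ER stress response element ERSE (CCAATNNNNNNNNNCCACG), its variant ERSE-II (ATTGGNCCACG), the core of the unfolded protein response element (TGACGTGG), the cyclic AMP response element CRE (TGACGTCA) and the C/EBP-ATF element read by ATF4 and CHOP (TGATGCAA). They were present in 0.113%, 0.0304%, 0.563%, 1.55% and 0.791% of 32851 promoters of the same length. Capitals mark the matched bases, and each sequence reads 5′ to 3′ toward the gene. Herpud1 lies on the plus strand at chr8:94386179-94386428, Ppp1r15a on the minus strand at chr7:45526269-45526518 and Hspa5 on the plus strand at chr2:34771840-34772089.
Herpud1: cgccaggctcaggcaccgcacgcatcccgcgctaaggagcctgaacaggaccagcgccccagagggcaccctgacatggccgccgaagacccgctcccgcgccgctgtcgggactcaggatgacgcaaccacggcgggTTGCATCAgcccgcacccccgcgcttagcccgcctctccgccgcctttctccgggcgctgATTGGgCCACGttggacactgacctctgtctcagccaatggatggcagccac
Ppp1r15a: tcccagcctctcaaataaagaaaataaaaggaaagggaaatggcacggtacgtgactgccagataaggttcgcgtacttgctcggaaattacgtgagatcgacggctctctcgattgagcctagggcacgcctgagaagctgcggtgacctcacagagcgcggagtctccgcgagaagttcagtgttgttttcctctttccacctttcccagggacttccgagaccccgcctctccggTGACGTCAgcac
Hspa5: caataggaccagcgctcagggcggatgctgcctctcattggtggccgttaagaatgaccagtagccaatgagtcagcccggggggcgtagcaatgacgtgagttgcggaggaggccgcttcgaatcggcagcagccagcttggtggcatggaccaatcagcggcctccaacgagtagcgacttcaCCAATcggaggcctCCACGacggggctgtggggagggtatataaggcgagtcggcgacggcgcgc
Herpud1 holds an ERSE-II from 52 to 42 bases before its start and a C/EBP-ATF element on the reverse strand from 112 to 105 bases before it. Ppp1r15a holds a CRE from 12 to 5 bases and Hspa5 an ERSE from 65 to 47 bases before the start. A match describes the letters only, and the other 6 members with a promoter held no exact match in this window. Elements that differ from these letters were not searched for, so these 6 may still hold one.

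The members lie on 9 chromosomes in GRCm38, the assembly that mm10 names, each annotated as protein-coding in GENCODE vM21. Atf6 spans 170704674 to 170867771 on chromosome 1 (minus strand), Ern1 106394650 to 106487852 on chromosome 11 (minus) and Eif2ak3 70844515 to 70905245 on chromosome 6 (plus). Ddit3 spans 127290774 to 127296288 on chromosome 10 (plus), where a second annotated entry of the same symbol lies within it and its exons share 68 bases with Mars on the other strand. Exons of Ppp1r15a share 11 bases with Tulp2 on the opposite strand and those of Manf 14 bases with Rbm15b on the same strand. Reads within these stretches cannot be assigned to 1 gene from unstranded data, and the other 7 members share no exonic base with another protein-coding gene.

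Other genes were taken from 7 lists of 89 genes, of which 74 were tested; the immediate early and housekeeping lists among them serve as a reference. In all 12 were lower and 5 higher in IgG1 cells. Of the 12 lower calls, 10 were in the XBP1 and ATF6 target lists. Of 16 XBP1 targets, which build the translocation, folding and degradation machinery of the ER, 6 were lower and 0 higher, with a median of -0.38. Of 14 tested ATF6 processing and target genes, 4 were lower and 0 higher, with a median of -0.31. These counts can be read beside the 1.76% of all tested genes called lower and their median of -0.05. Without IgM library 1 or IgG1 library 2 both lists had 0 lower calls, without IgM library 3 they had 1 and 2, and without IgG1 library 3 also 1 and 2. They had 12 and 10 with quantile normalization, 11 and 10 with Jchain left out of the scaling, and 0 and 0 without the filter or without limma's intensity trend. With length (longest transcript) and GC trends removed 1 call remained in each list, those of Dnajb11 (-0.45, adjusted p = 0.0155) and Pdia4 (-0.52, adjusted p = 0.0155), and the medians were -0.10 and -0.24.

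Among XBP1 targets the lower genes were the BiP co-chaperones Dnajb11 (773 ± 42.1 against 1100 ± 60.5 FPKM, mean ± SD, n = 3) and Dnajc3 (161 ± 45.2 against 290 ± 7.28), the degradation mannosidases Edem1 (1260 ± 45.3 against 1662 ± 45.6) and Edem3 (26.3 ± 3.72 against 48.5 ± 8.03), and the translocation genes Srpr (336 ± 24.6 against 468 ± 29.9) and Ssr3 (278 ± 17.6 against 396 ± 35.4). For each of the 6 the groups did not overlap, beside 13.5% of all tested genes that were lower without overlap. The 6 were picked by the same values, so this adds no support. Edem1 went from -0.40 (SE 0.09) to -0.04 when those trends were removed. In the ATF6 list the lower genes were the lectin chaperone Canx (179 ± 7.61 against 259 ± 16.9), the disulfide isomerases Pdia3 (1101 ± 135 against 1516 ± 98.4) and Pdia4 (2174 ± 388 against 3346 ± 127), and the degradation adaptor Sel1l (161 ± 27.3 against 261 ± 9.87). Hspa5, which encodes BiP, was at 3665 ± 708 in IgG1 against 4604 ± 150 FPKM in IgM without overlap, and its log2 fold change of -0.35 had an adjusted p of 0.135 (limma). It was at -0.63 (adjusted p = 0.0202) with quantile normalization, -0.58 (adjusted p = 0.0264) with Jchain left out and -0.09 (adjusted p = 0.631) with length and GC trends removed. Leaving out 1 library gave Hspa5 an adjusted p from 0.0333 to 0.352. As deposited, Dnajb9, Herpud1 and Manf were not called either. Herpud1 and Manf were called with quantile normalization, and Herpud1 also with Jchain left out. The difference between the fold changes of Dnajb9, Herpud1 and Manf and those of the 10 called genes was not tested.

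Of 7 tested signalling genes around IRE1, 0 were called, 6 were positive and the median was 0.25. Over all tested genes 6.02% were called, 4211 of 9087 were positive and the median was -0.05. Xbp1 itself was at 5365, 6021 and 5354 FPKM in the IgM libraries and 6614, 6432 and 6862 in those of IgG1. Every IgG1 library was above every IgM library, though adjusted p was 0.136 (limma) for a log2 fold change of 0.25 (SE 0.09). The value for Xbp1 depended on the scaling, with 0.26 (adjusted p = 0.0231, limma) under quantile normalization, 0.33 (adjusted p = 0.109) under median centring and 0.019 (adjusted p = 0.872) with Jchain left out. The anti-apoptotic ER channel gene Tmbim6 was at 372 against 347 FPKM on average. Per gene symbol these values do not separate spliced from unspliced Xbp1 mRNA. In the CREB3 family 2 of 4 genes were tested and 0 called, Creb3 at 195 against 202 FPKM and Creb3l1 at or below 3.68 in every library, while Creb3l3 and Creb3l4 were listed at 0 throughout. Ern2, the second IRE1 gene, was also listed at 0 in all 6 libraries.

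On the PERK, ATF4 and CHOP axis 1 of 19 tested genes was called, a share near the 6.02% of all tested genes. This was Bcl2l11, the gene of the death-promoting BCL2 relative BIM, at 45.0 ± 7.82 in IgG1 against 112 ± 14.9 FPKM in IgM (log2 fold change -1.30, SE 0.17, adjusted p = 0.00389, limma). This call held when any 1 library was left out (largest adjusted p 0.0254). The list's median was -0.16, and Atf4, the central factor of the axis, was at 114, 113 and 84.7 FPKM in the IgM libraries and 104, 102 and 75.3 in those of IgG1. Atf3 was at 0.701 FPKM in IgM library 1, 0.0327 in IgM library 2 and listed at 0 in the others. Of 6 housekeeping genes, chosen as a reference, Gapdh (0.70), Actb (0.64) and Ppia (0.45) were higher in IgG1 cells at adjusted p under 0.05 (limma). Of all tested genes 4.26% were called higher. These reference genes thus did not stay level between the groups in these values. With quantile normalization 0 of the 6 were called, as without IgM library 1 or 3 or IgG1 library 2 or 3.

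**Figure D4:**
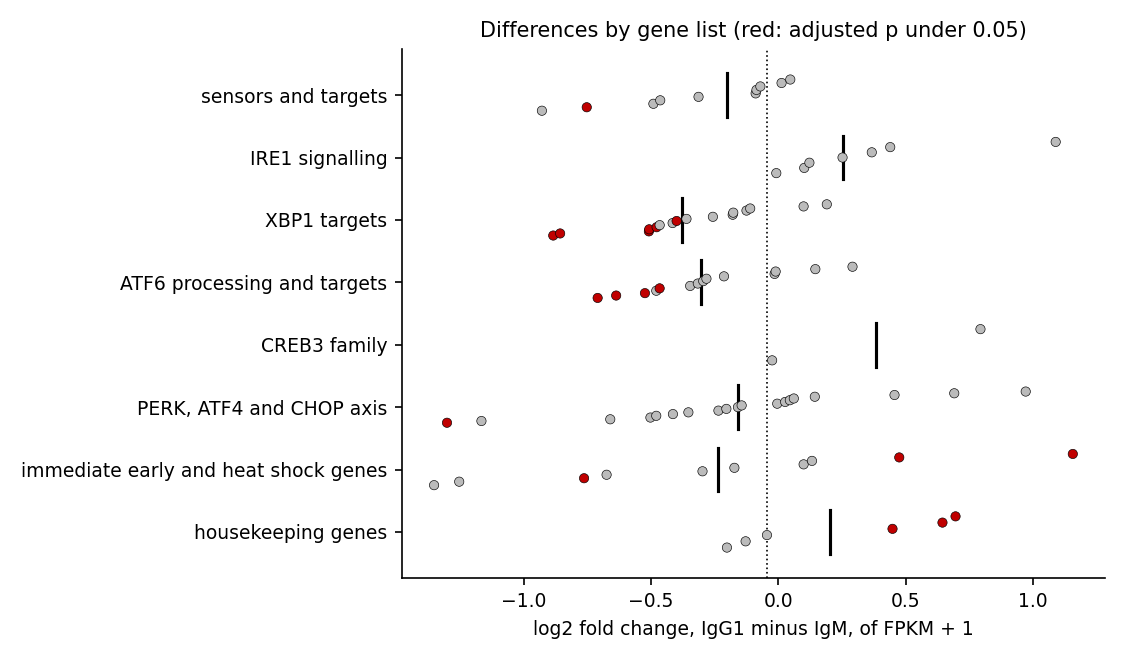
Log2 fold change, IgG1 minus IgM on FPKM + 1, of each tested gene by list, with red points for adjusted p under 0.05, a black bar at each list's median and a dotted line at the median of all tested genes (-0.05). The XBP1 and ATF6 target lists hold 6 and 4 red points, all left of the dotted line, and the IRE1 signalling list holds none.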

How the data were processed

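FPKM were deposited by the authors as 1 value per gene symbol and library. SMART-Seq HT cDNA and Nextera XT libraries were made from column-purified RNA, per the labels' protocols. Per the submitters' processing notes, TopHat2 2.1.1, Bowtie2 2.3.5.1, Cufflinks 2.2.1, Cuffdiff and mm10 were used. Neither the gene annotation nor any scaling across samples is stated in the sources used here.

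From these values log2(FPKM + 1) was computed without further scaling, and genes with at least 1 FPKM in at least 3 of 6 libraries were tested. The groups were compared in limma 3.58.1 (R 4.3.3; eBayes with an intensity trend), adjusted by Benjamini-Hochberg over 9087 genes at 0.05. The fit was tested on simulated data. It recovered 26% of genes changed by 0.5 on the log2 scale, 60% at 1 and 100% at 2. A difference of 0.5 to 1 can thus go uncalled. Fragments per library were estimated from FPKM times length in genes with 1 transcript. The median of values within a preset range was taken as 1 fragment. The range bounds the estimate, which is approximate. Length and GC content came from GENCODE vM21 basic transcripts. The correction removed natural splines (4 degrees of freedom each) of length and GC from each library's deviations from the gene means, in the 9043 tested genes with a length. Its values in the report use the longest transcript per gene, an alternative chosen after the data were seen, unless the median is named.

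The 10 genes, the lists and the alternatives were chosen with earlier results of these data known. Named were all 10 members, in each list every gene past the threshold or else the 2 with the highest mean, the 3 genes most like each sensor, and marker genes, of which 1 B cell marker is not reported here. Hspa5, Map3k5, Atf3, Atf4, Ern2, Creb3l3, Creb3l4, Ppp1r15b, Fos, Jun, Junb, Ier2, Egr1, Dusp1 and Hspa1b fall outside this rule. So do Mars, Tulp2 and Rbm15b, named for exonic bases shared with members. The alternatives changed the pseudocount (0.1 or 5), the filter (none, or 5 FPKM), the scaling (median centring, quantiles, or equal totals with Jchain left out) and the moderation (no trend, robust, or array weights). Others added a replicate block, corrected for length and GC, or left out libraries.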

Additional observations from a re-analysis of the deposited data

How the results depend on the processing

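Of the 10 members 1 was called, and it was called again with a pseudocount of 5, a filter at 5 FPKM, robust moderation and array weights. The count was 0 with a pseudocount of 0.1, without a filter, after median centring, without the intensity trend, with the replicate block, with either length and GC correction, blocked or not, and without both libraries numbered 1. It was 3 with quantile normalization and 3 with Jchain left out of the scaling, and leaving out 1 library gave 0 to 0. The 17 calls among the pathway lists became 0 without a filter and 0 without the intensity trend, 27 with quantile normalization, 26 with Jchain left out of the scaling, and 7 with the correction by median or longest transcript. With the replicate block they became 11 with the correction by median length and 15 with that by the longest transcript, where the XBP1 and ATF6 lists had 3 and 3. They became 5 without both libraries numbered 1, and 1 to 18 without 1 library. Over all genes the percentage called was 0.0402% without a filter and 0.088% without the intensity trend. Higher calls numbered 387 and lower calls 160 over all genes, which became 188 and 200 with quantile normalization and 177 and 393 with Jchain left out. The cause of these shifts was not tested. Ern1, Eif2ak3, Creb3l2, Atf6 and Herpud1 stayed negative in all 22 alternatives. Several of these could not change a sign. The filter, the intensity trend, robust moderation and the replicate block left each fold change as it was. For Ern1 and Atf6, whose groups did not overlap, leaving out libraries could not change the sign either.

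Values near 0 changed sign. Atf6b was -0.17 with quantile normalization, -0.22 with Jchain left out, -0.12 and -0.14 with the corrections (block included), and -0.072 without both libraries numbered 1. Leaving out 1 library gave Atf6b -0.10 (without IgG1 library 3) to 0.16 (without IgG1 library 2), with a negative sign also without IgM library 1, IgM library 3 or IgG1 library 1. Leaving out 1 library gave Ddit3 -0.96 (without IgG1 library 1) to 0.015 (without IgG1 library 2; positive also without IgG1 library 3) and Ppp1r15a -0.23 to 0.072 (positive without IgM library 1 or IgG1 library 2). Dnajb9 was 0.0045 after median centring, 0.15 and 0.11 with the corrections (block included) and, leaving out 1 library, -0.18 to 0.050 (positive without IgG1 library 3). Manf was -0.32 with quantile normalization, -0.19 with Jchain left out and -0.021 without both libraries numbered 1. Creb3 was 0.051 after median centring, 0.15 without IgM library 2 and 0.0049 without IgG1 library 2. Tmbim6 was -0.12, -0.13 and -0.12 with quantile normalization, Jchain left out and the correction by median length (block included).

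Across genes, deviations from the group means correlated at r 0.101, -0.0315 and -0.000571 between same-numbered libraries 1 to 3. Pairs with different numbers ran from -0.0982 to 0.0958. With 3 libraries per group, these values neither show nor exclude a pairing by number. With the replicate block 0 members, 18 pathway genes and 586 of all genes were called, beside 547 without it, and Atf6 had an adjusted p of 0.0558. Jun had an adjusted p of 0.351 without the block and 0.0358 with it (log2 fold change -1.25, limma). With the block no other call among the pathway lists changed. Depth limits Ddit3 most, with about 72 estimated fragments in its lowest library.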

Other observations

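Within each library the Xbp1 to Ern1 ratio was 298, 227 and 286 in IgM libraries 1 to 3 and 489, 614 and 860 in IgG1 libraries 1 to 3. Xbp1 was higher and Ern1 lower in every IgG1 library, so this ratio had to separate the groups and adds no support. The Atf6b to Atf6 ratio was 2.24, 3.00 and 1.89 in the IgM libraries and 3.96, 2.78 and 5.87 in those of IgG1, where IgG1 library 2 lay within the IgM range. The Ppp1r15a to Ppp1r15b ratio was 1.38, 1.14 and 0.725 in the IgM libraries and 1.71, 1.31 and 1.79 in those of IgG1, also overlapping. These ratios were chosen after the values were seen and carry no test, and the transcripts in each differ in length.

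Among 6511 genes with a mean of at least 5 FPKM, those whose log2(FPKM + 1) followed a sensor most closely over the 6 libraries were, for Ern1, Ankrd46 (Pearson r 0.988), Harbi1 (0.984) and Tox4 (0.980). For Atf6 they were Ptpn11 (0.997), Yipf4 (0.994) and Arnt (0.993). For Eif2ak3 they were Tapt1 (0.995), Cnot6 (0.993) and Prickle3 (0.981). Ptpn11, which encodes the phosphatase SHP-2, was at 13.5, 12.7 and 15.8 FPKM in the IgM libraries and 7.21, 8.37 and 5.35 in those of IgG1. With 6 libraries and this many genes compared, these values only describe likeness over these libraries.

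In the IRE1 list Map3k5, which encodes the kinase ASK1, was at 1.71, 1.31 and 3.59 FPKM in the IgM libraries and 4.06, 6.98 and 5.82 in those of IgG1 (log2 fold change 1.09, SE 0.43, adjusted p = 0.16 with limma).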
